A study of Rattus norvegicus with 4 samples.

Results

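The Rab GTPase genes were examined in NR8383 cells, a rat alveolar macrophage line started from lung lavage of a normal rat, after exposure to the carbon nanotube NM403 at 0.8 cm2 per cm2 for 4 h. Members were the rat genes whose symbol is Rab followed by a number and at most 1 letter, found through the accession of each array probe. Of 58 such symbols in the RefSeq table, 54 had a named probe, out of 16581 genes with a named probe on the array, and the members were read by 70 probes. Rab22a, Rab37, Rab42 and Rab44 had no named probe and were not analysed here. All 4 arrays (replicates 1 to 4) came from exposed cultures after 20 passages of the line, seeded for 48 h in 25 cm2 flasks in medium with 15% serum. The design text calls the replicates biological but does not say how the cultures were separated, so SDs measure the spread between these samples. Unexposed cultures, which the design text also names, were not analysed here, so every value below describes exposed cells and a response to NM403 was not tested for any member.

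Rab proteins are small GTPases that mark the membranes of each compartment of the vesicle traffic system. In the GTP-bound form they recruit effectors that move, tether and fuse vesicles, and in the GDP-bound form a GDP dissociation inhibitor takes them off the membrane. In macrophages a newly formed phagosome is known to exchange early endosomal Rab5 for late endosomal Rab7 as it matures towards fusion with lysosomes.

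Each level below is a log2 Cy3 signal minus a scaling value of the same array, its 75th percentile over probes detected throughout the 4 arrays. A level compares 1 probe across arrays and does not rank genes against each other. Detected means that the scanner software called the probe well above background. In bulk samples like these, fewer cells of a type and less RNA per cell cannot be told apart. The arrays were not evenly alike: among the 38 Rab genes whose probe was called on every array, 0 differed more than 2-fold between replicates 1 and 3 or between replicates 2 and 4, and 1 to 4 did in each of the other 4 pairs. Over all genes the shares were 0.655% and 1.30% for these 2 pairs and 8.78% to 9.86% for the others. The software marked the extraction of replicate 4 for evaluation, and that array had 1016 outlier spots among its non-control spots, against 623 to 675 on the others. The share of non-control spots called above background ran from 45.9% on replicate 4 to 50.8% on replicate 1. With 308 negative control spots per array, 7 to 11 were called above background. Precision is limited by the number of arrays.

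Most Rab genes were detected in the exposed cells. Of 54 members, 38 (70.4%) were detected on all 4 arrays, where 47.9% of all genes with a named probe were. Another 4 members were detected on 1 or 2 arrays (11.6% of all named genes were on 1 to 3 arrays). The remaining 12 members (22.2%) were not well above background on any of the 4, as were 40.4% of all named genes. By role, detection on all arrays held for 4 of 6 early endosome members, 11 of 12 recycling and plasma membrane members and 9 of 13 late endosome, lysosome and phagosome members. It held for 8 of 12 members of the endoplasmic reticulum and Golgi, 3 of 7 members of regulated secretion and 3 of 4 others. The identity of the cells was checked on macrophage markers, of which 9 of 11 were detected on all arrays, among them Cd68 at 3.76 ± 0.25 and Csf1r at -1.57 ± 0.23 (mean ± SD, n = 4 here and throughout). Adgre1 and Marco, both known from tissue macrophages, were not well above background on any of the 4.

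**Figure D1:**
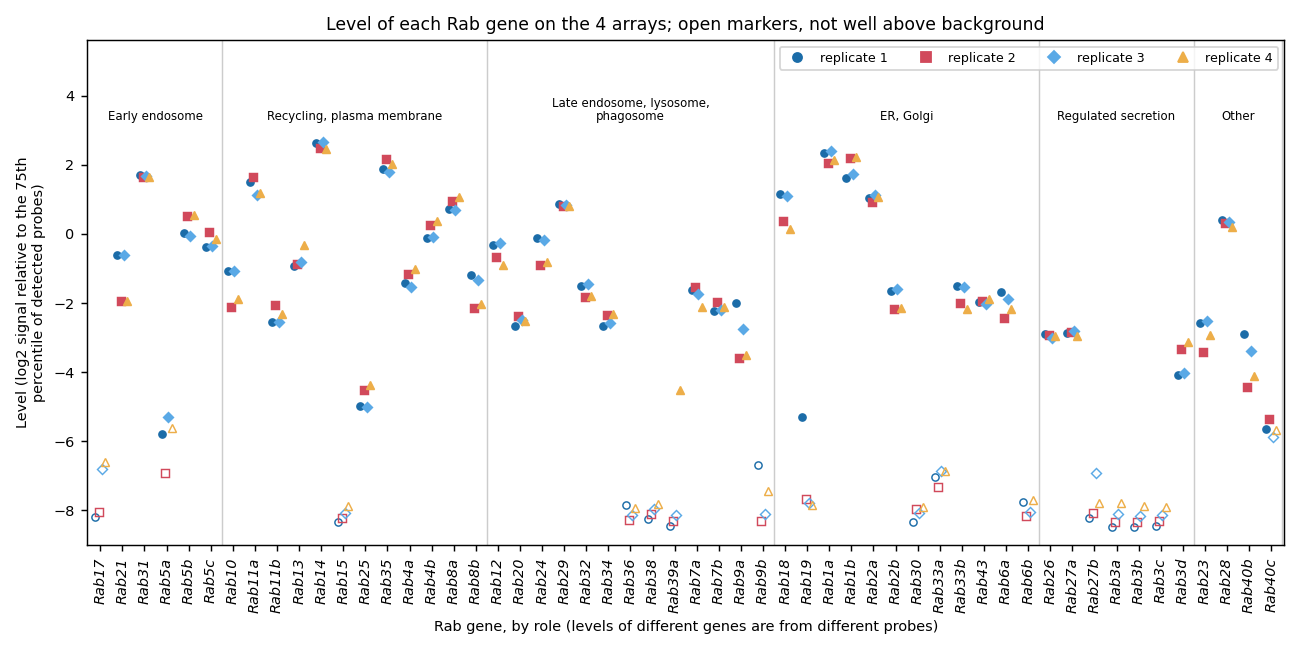
Level of the brightest probe of each of the 54 Rab genes on each of the 4 arrays (log2 signal relative to the 75th percentile of detected probes), grouped by role; each marker is 1 array, and open markers are arrays on which no probe of the gene was well above background. The 12 genes with open markers on all 4 arrays lie below -6, and Rab39a and Rab19 each have 1 array above the other 3.

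Under the scaling used, the spread of the Rab genes between cultures was close to that of all genes. Their median SD was 0.244, against 0.234 over all 7935 genes called on every array at their brightest probe, and their median range was 1.43-fold against 1.40-fold. A range above 2-fold was found for 5 of 38 members (13.2%), Rab9a, Rab40b, Rab21, Rab10 and Rab18, where 13.6% of all genes had one. The just smaller ranges were those of Rab3d (1.93-fold) and Rab8b (1.93-fold). Without replicate 1 the number was 3 of 38, since Rab9a and Rab18 dropped out. Rab9a and Rab40b kept the range under all 3 other scalings, whereas Rab10 lost it under each, Rab18 under 2 and Rab21 under 1. All 5 genes were highest on replicates 1 and 3, as were 80.2% of the 1079 genes of the array with such a range. The 2 highest arrays were replicates 1 and 3 for 18 members (47.4%, against 34.5% of all genes) and replicates 2 and 4 for 13 (34.2%, against 47.3% of all genes). Together these orders covered 31 of 38 members (81.6%), where they covered 81.8% of all genes. The split depended on the scaling: replicates 1 and 3 were highest for 11 members and replicates 2 and 4 for 25 when arrays were scaled on all non-control probes, and for 14 and 22 with the array median. The order held under all 3 other scalings for 23 of the 31 members, 11 of them highest on replicates 1 and 3. It changed under at least 1 for Rab14, Rab1a, Rab28, Rab29, Rab31, Rab32, Rab35 and Rab6a.

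**Figure D2:**
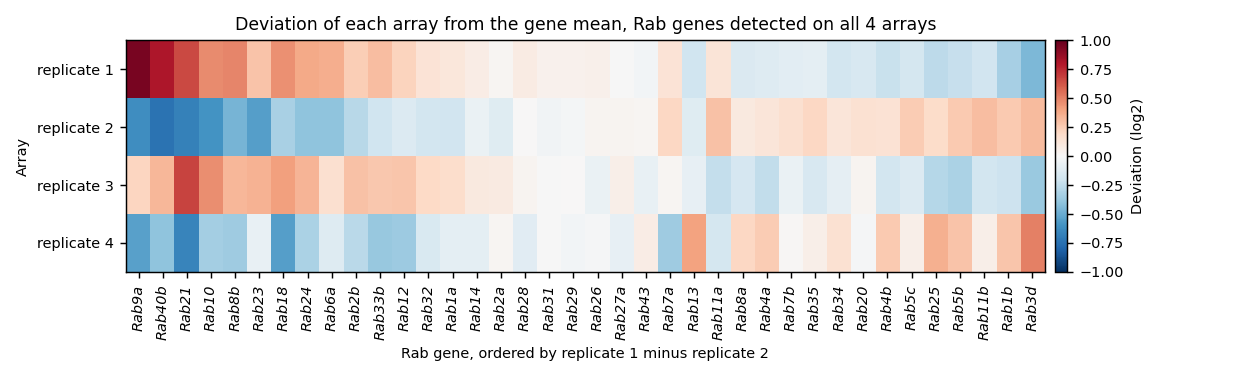
Deviation of each array from the mean of the gene (log2, colour) for the 38 Rab genes detected on all 4 arrays, in columns ordered by replicate 1 minus replicate 2. Replicates 1 and 3 share colours for most genes, as do replicates 2 and 4, with Rab9a, Rab40b and Rab21 at one end and Rab3d and Rab1b at the other.

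To set the genes with the widest ranges beside 1 of the 2 most even ones, a choice made after their values were seen, the 250 bases before the RefSeq start of the 5 wide genes and of Rab31 are shown 5′ to 3′ on the strand of the gene, from the RefSeq table of build GRCr8. Capitals mark the GC box, searched as GGGCGG and its other-strand form CCGCCC, and the E-box CACGTG, which reads the same on both strands and is the core of the site bound by Mitf and Tfeb.
Rab9a (chrX:31609839-31610088, plus strand): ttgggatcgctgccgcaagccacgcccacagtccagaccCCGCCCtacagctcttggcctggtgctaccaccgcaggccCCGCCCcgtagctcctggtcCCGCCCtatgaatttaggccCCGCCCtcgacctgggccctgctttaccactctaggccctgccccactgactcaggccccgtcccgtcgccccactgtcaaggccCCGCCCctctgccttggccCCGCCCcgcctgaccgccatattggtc
Rab40b (chr10:107157376-107157625, minus strand): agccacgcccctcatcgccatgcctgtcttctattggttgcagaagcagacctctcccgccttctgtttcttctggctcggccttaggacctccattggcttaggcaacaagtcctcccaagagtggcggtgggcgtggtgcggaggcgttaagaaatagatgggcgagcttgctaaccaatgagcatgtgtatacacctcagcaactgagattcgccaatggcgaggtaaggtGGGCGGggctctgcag
Rab21 (chr7:52814944-52815193, minus strand): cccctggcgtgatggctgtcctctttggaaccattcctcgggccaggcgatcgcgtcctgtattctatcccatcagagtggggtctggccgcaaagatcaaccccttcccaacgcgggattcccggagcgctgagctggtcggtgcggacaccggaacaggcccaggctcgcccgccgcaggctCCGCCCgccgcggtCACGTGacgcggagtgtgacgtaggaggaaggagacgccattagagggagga
Rab10 (chr6:32039555-32039804, minus strand): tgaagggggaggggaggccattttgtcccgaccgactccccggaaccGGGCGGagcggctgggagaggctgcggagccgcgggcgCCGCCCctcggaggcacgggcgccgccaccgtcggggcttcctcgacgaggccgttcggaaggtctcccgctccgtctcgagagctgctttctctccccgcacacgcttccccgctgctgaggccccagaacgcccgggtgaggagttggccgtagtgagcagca
Rab18 (chr17:59639014-59639263, plus strand): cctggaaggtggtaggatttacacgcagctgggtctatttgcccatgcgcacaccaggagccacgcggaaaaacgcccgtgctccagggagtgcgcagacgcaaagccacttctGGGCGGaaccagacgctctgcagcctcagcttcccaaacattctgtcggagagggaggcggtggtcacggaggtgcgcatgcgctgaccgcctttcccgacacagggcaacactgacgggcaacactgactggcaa
Rab31 (chr9:112828093-112828342, minus strand): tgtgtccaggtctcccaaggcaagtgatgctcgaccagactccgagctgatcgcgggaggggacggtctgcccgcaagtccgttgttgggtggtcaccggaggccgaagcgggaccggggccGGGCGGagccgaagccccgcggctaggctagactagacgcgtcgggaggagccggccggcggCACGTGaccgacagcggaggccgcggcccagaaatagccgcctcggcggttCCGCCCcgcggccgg
All 6 windows held a GC box, with 6 in Rab9a, 2 in Rab10 and Rab31 and 1 each in Rab21, Rab18 and Rab40b. A CACGTG was found in Rab21, a wide gene, and in Rab31, an even one. Of the 54 members, 45 had a promoter in the table. A GC box was present in 27 of 32 detected on all arrays (84.4%), 3 of 4 detected on some and 5 of 9 detected on none. Among all named genes with a promoter it was present in 59.1% of 6667 detected on all arrays and in 30.0% of 5338 detected on none, and among all 33469 promoters of the table in 30.5%. A CACGTG was present in 2 of those 32 members, in 8.58% of the 6667 genes and in 5.59% of all promoters. Such matches describe letters in a window and are not binding sites.

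Of the early endosome members, Rab31, Rab5b, Rab5c and Rab21 were detected on all arrays. Rab31, which acts between the trans-Golgi network and endosomes and is found on phagosomes, had levels of 1.71, 1.63, 1.66 and 1.66 on replicates 1 to 4. It and Rab29 were the most even members under this scaling. The 4 arrays of Rab31 had an SD of 0.033, or 0.016 without replicate 1, but 0.19 when arrays were scaled on all non-control probes. Its promoter, shown above, carried 2 GC boxes and a CACGTG. Rab5b and Rab5c encode isoforms of the GTPase of early endosome fusion. Rab5b had levels of 0.02, 0.51, -0.06 and 0.54, and Rab5c of -0.39, 0.04, -0.35 and -0.16. Both were higher on replicates 2 and 4 than on 1 and 3, and the SD of Rab5c (0.20) was 0.12 without replicate 2. The probe of the isoform Rab5a read -5.79, -6.93, -5.29 and -5.62 and was above background on replicates 1 and 3 alone, so its level lay at the limit of detection. Rab21, which acts in integrin endocytosis, had levels of -0.62, -1.95, -0.60 and -1.94. Replicates 1 and 3 did not overlap replicates 2 and 4, and the highest and lowest arrays differed 2.55-fold. Around the Rab21 spot, 2 of 24 neighbouring spots were raised on replicate 1, against a mean of 0.23 of 24 over that array. Raised means at least 4-fold above the median on the other arrays, with signals below 50 counted as 50. The part of these spots in the Rab21 reading was not tested. Rab17, known from polarised epithelial cells, was not well above background on any of the 4.

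Recycling members were the most widely detected role. Rab4a and Rab4b, which return receptors from early endosomes to the surface, were both higher on replicates 2 and 4. Rab4a read -1.41, -1.17, -1.54 and -1.03, and the brighter probe of Rab4b averaged 0.10 ± 0.24. Rab11b, of the recycling endosome, averaged -2.37 ± 0.24, with an SD of 0.14 once replicate 2 was left out. Rab11a, of the slower recycling endosome, read 1.49, 1.65, 1.13 and 1.19 at its brighter probe and -2.21, -3.34, -2.40 and -3.36 at its other probe. The brighter probe was highest on replicates 1 and 2 and the other on replicates 1 and 3, so which cultures read high for Rab11a depended on the probe. Rab14, which acts between the Golgi and endosomes and on phagosomes, read 2.64, 2.50, 2.66 and 2.47 at the brightest of 3 probes. Its SD of 0.098 was 0.24 under quantile normalization, 0.12 with all non-control probes and 0.033 with the median of detected probes. Rab35, of a recycling route linked to actin, read 1.87, 2.17, 1.81 and 2.03 at the brighter of 2 probes.

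The genes Rab8a and Rab8b encode close paralogs that carry vesicles to the plasma membrane. Rab8a had levels of 0.71, 0.95, 0.68 and 1.06, higher on replicates 2 and 4. Rab8b had levels of -1.18, -2.13, -1.33 and -2.02, higher on replicates 1 and 3. The paralogs were thus high on different arrays, and this order held under all 3 other scalings tried. Under the scaling used the SDs were 0.19 for Rab8a and 0.48 for Rab8b, but that of Rab8a was 0.39 with all non-control probes. Rab10, which brings receptors such as Tlr4 to the surface of macrophages, read -1.06, -2.13, -1.07 and -1.87 and was also higher on replicates 1 and 3. Its 2.09-fold range was 1.75-fold without replicate 2. Rab13, known from tight junctions, read -0.93, -0.86, -0.82 and -0.33. Replicate 4 was the highest, and the SD was 0.27 with it and 0.056 without it. Rab25, an epithelial member of the Rab11 group, was detected on all arrays at -4.71 ± 0.32, where the lowest levels called on the arrays were -6.23 to -5.63. Rab15 was the 1 recycling member not well above background on any of the 4. In the epithelial marker list 0 of 8 genes were detected on all arrays, 7 were detected on none, and Sftpc was above background on 1. The summed linear level of that list was 0.0284 to 0.0627 of the scaling percentile over the 4 arrays, and its part in the Rab25 reading was not tested.

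Late endosome, lysosome and phagosome members included the genes of the later steps of phagosome maturation. Rab7a, the GTPase of late endosome and lysosome fusion, had levels of -1.61, -1.54, -1.73 and -2.10. Replicate 4 was the lowest, and the SD of 0.25 was 0.095 without it. Rab7b, which acts from endosomes to the Golgi, read -2.22, -1.96, -2.19 and -2.11. Replicate 2 was the highest, and the SD was 0.12 with it and 0.06 without it. The signal of Rab20, a GTPase of phagosome acidification in macrophages, was -2.68, -2.36, -2.49 and -2.52. Replicate 1 was the lowest, and the SD was 0.13 with it and 0.086 without it. These 3 genes had fold ranges of 1.48 for Rab7a, 1.20 for Rab7b and 1.24 for Rab20, where the median range over all genes was 1.40-fold. The spread of Rab7b and Rab20 depended on the scaling, with SDs of 0.32 for Rab7b and 0.31 for Rab20 when all non-control probes were used.

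Rab9a, which returns mannose 6-phosphate receptors from late endosomes to the Golgi, had the widest range under this scaling of the members detected on all arrays. Its promoter window held 6 GC boxes, as did that of Rab28, whose range was 1.15-fold. The levels of Rab9a were -2.01, -3.58, -2.75 and -3.50, a 2.97-fold range. Replicates 1 and 3 were above replicates 2 and 4 without overlap, but the size rested in part on replicate 1: without it the range was 1.78-fold and the SD 0.46 in place of 0.74. Its paralog Rab9b was not well above background on any of the 4. Rab34, which positions lysosomes and acts in macropinocytosis, had levels of -2.66, -2.35, -2.56 and -2.32 as the mean of 9 or 10 spots per array. The spots of Rab34 on 1 array had SDs of 0.0554 to 0.0945, against an SD of 0.17 between arrays under the scaling used. The SD between arrays was 0.37 with all non-control probes, 0.28 with the median of detected probes and 0.32 with quantile normalization. Rab24, linked to autophagy, had a level of -0.51 ± 0.41, and Rab12, linked to receptor degradation, of -0.54 ± 0.30 at its brighter probe.

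Rab29, Rab32 and Rab38 encode a related group that acts on lysosomes and lysosome-related organelles. Rab29 read 0.88, 0.81, 0.84 and 0.81, with a range of 1.05-fold beside 1.06-fold for Rab31. Its SD was 0.033, and 0.016 without replicate 1, but 0.19 with scaling on all non-control probes. Rab32 had levels of -1.50, -1.82, -1.44 and -1.79. Rab38, known from melanosomes and lung epithelial lamellar bodies, was not well above background on any of the 4 and read -8.25, -8.11, -7.97 and -7.80. Of the 3 related genes, 2 were thus detected and 1 was not. Of 3 measured melanocyte markers 0 were detected on all arrays, Tyr and Tyrp1 on none and Mlana on 3. Lrrk2, the kinase that phosphorylates several Rab proteins, was detected on all arrays at -1.61 ± 0.24. Rab36 was not detected on any array, and Rab39a, a GTPase of phagosomes and autophagy, was called on replicate 4 alone, with readings of -8.45, -8.31, -8.12 and -4.51.

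Of the 12 members of the endoplasmic reticulum and Golgi, 8 were detected on all arrays. Rab1a and Rab1b, which carry cargo from the endoplasmic reticulum to the Golgi, had levels of 2.24 ± 0.17 and 1.95 ± 0.31 at their brighter probes. Rab1a was highest on replicates 1 and 3 and Rab1b on replicates 2 and 4, but Rab1a lost this order under at least 1 other scaling, and the second Rab1b probe read -3.00, -3.27, -3.38 and -3.36 without that order. Rab2a averaged 1.04 ± 0.087 (SD 0.039 without replicate 2), and Rab6a, of retrograde Golgi traffic, averaged -2.04 ± 0.34. Rab2b averaged -1.89 ± 0.31 and Rab33b, which acts in Golgi traffic and autophagy, -1.80 ± 0.34, both higher on replicates 1 and 3. The level of Rab43 was -1.96 ± 0.064. Rab18, which acts at lipid droplets and the endoplasmic reticulum, read 1.15, 0.37, 1.10 and 0.14 at the brightest of 3 probes. All 3 Rab18 probes were highest on replicates 1 and 3, with ranges of 1.90 to 2.35-fold. The 2.01-fold range of the brightest probe was 1.95-fold without replicate 1 and 1.72-fold without replicate 4. Around that spot, 3 of 24 neighbouring spots were raised, by the rule given for Rab21, on replicate 2, where Rab18 was low. The mean over that array was 0.087 of 24, and the part of these spots in the reading was not tested. Of the other wide genes, Rab40b had 1 raised neighbour, on replicate 3, and Rab9a and Rab10 had 0 on every array. Rab30, Rab33a and Rab6b were not well above background on any of the 4, and Rab19 was called on replicate 1 alone, at readings of -5.30, -7.67, -7.77 and -7.86.

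Genes of regulated secretion were detected in part. Rab27a, which docks lysosome-related organelles and secretory granules, had levels of -2.88, -2.85, -2.82 and -2.96. Replicate 4 was the lowest, and the SD was 0.061 with it and 0.029 without it, but 0.19 with scaling on all non-control probes. Rab26 read -2.89, -2.91, -3.01 and -2.95. Its SD was 0.052, and 0.032 without replicate 3, but 0.23 with scaling on all non-control probes. Rab3d, known from granules of secretory and blood cells, was higher on replicates 2 and 4, with a level of -3.64 ± 0.48 and a 1.93-fold range. By contrast, Rab3a, Rab3b and Rab3c, the Rab3 genes of neurons and endocrine cells, were not well above background on any of the 4. The same was true of Rab27b. Of 8 neuron markers 1 (Eno2, at -0.76 ± 0.23) was detected on all arrays and 5 on none, among them Syp and Snap25. The summed linear level of the neuron list was 0.593 to 0.804 of the scaling percentile, most of it from Eno2 on every array. Of the markers of granulated blood cells, 0 of 4 mast cell genes were detected on any array. Among 4 neutrophil genes Camp and Lcn2 were detected on all arrays, S100a8 on replicate 1 alone and Elane on none. The summed level of the neutrophil list was 0.318 to 0.503, most of it from Camp and Lcn2. It was higher on replicates 2 and 4 as for Rab3d, an order that 47.3% of all genes had. Its part in the Rab3d reading was not tested.

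Of the other members, Rab28 averaged 0.31 ± 0.083, and its SD was 0.043 without replicate 4. Rab23, known from hedgehog signalling, averaged -2.86 ± 0.41, and its SD was 0.23 without replicate 2. Rab40b and Rab40c encode Rab proteins with a domain that binds a ubiquitin ligase. Rab40b had levels of -2.90, -4.44, -3.38 and -4.11, a 2.91-fold range with replicates 1 and 3 above 2 and 4. Rab40c read -5.63, -5.35, -5.87 and -5.67 and was above background on replicates 1 and 2 alone, at the limit of detection.

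Probes of the same gene were compared for which arrays were highest. Over all genes 34.5% were highest on replicates 1 and 3 and 47.3% on replicates 2 and 4. Unrelated probes can thus share an order, and a shared order is a weak check. Of the 13 members with several probes, 11 had more than 1 probe detected on all arrays. The 2 highest arrays were the same at every such probe for 6 of the 11: Rab18, Rab1a, Rab28, Rab2b, Rab4b and Rab7b. Of these 6, Rab1a and Rab28 lost the order at their brightest probe under at least 1 other scaling. The order at dimmer probes was not followed under other scalings. The dimmer Rab2b probe read -4.65 on replicate 3 and -4.69 on replicate 4, a gap smaller than the shifts between scalings. The 2 highest arrays were not the same at every such probe for Rab11a, Rab12, Rab14, Rab1b and Rab35. The dimmer Rab35 probe read -4.84, -5.13, -4.43 and -5.30, highest on replicates 1 and 3, whereas the brighter was highest on replicates 2 and 4. The second Rab23 probe was above background on 2 arrays. Several Rab genes are close paralogs, and signal shared between their transcripts was not tested, since probe sequences were not used here.

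**Figure D3:**
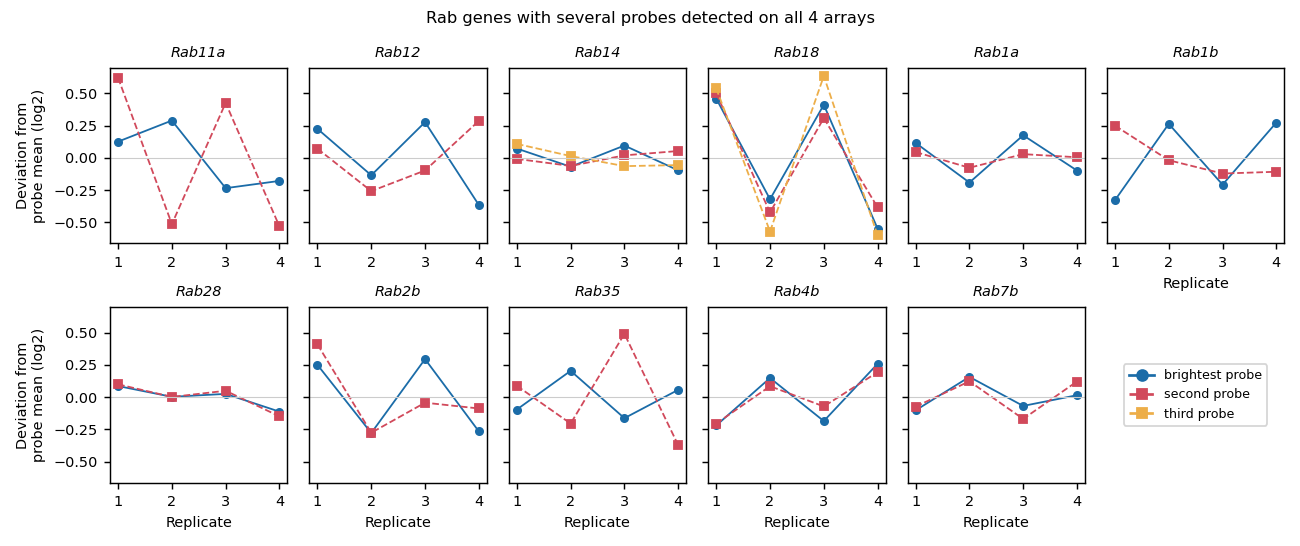
Deviation of each array from the mean of the probe (log2) on replicates 1 to 4 for the 11 Rab genes with more than 1 probe detected on all arrays; the solid line is the brightest probe and dashed lines are the others. The 3 Rab18 probes run together, whereas those of Rab11a and Rab35 differ in which arrays are high.

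Genes that regulate or read the Rab cycle were detected for the most part. Of 146 listed genes, 108 had a named probe, and 86 of these (79.6%) were detected on all 4 arrays, 4 on some and 18 on none. Over all named genes the shares were 47.9% on all arrays, 11.6% on 1 to 3 and 40.4% on none, and they also apply beside each list below. All 7 genes of GDP dissociation inhibition, prenylation and Rab chaperoning were detected on all arrays. Gdi2, the broadly expressed GDP dissociation inhibitor, read 1.20, 1.27, 1.20 and 1.32. Chml, an escort protein for Rab prenylation, read -3.90, -4.99, -3.81 and -5.21 and was higher on replicates 1 and 3. Ranges were 1.09-fold for Gdi2 and 2.64-fold for Chml.

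Exchange factors, which load Rab proteins with GTP, were detected for 25 of 31 measured genes. The Rab5 exchange factor Rabgef1 had a level of -1.29 ± 0.30 and Mon1a, a subunit of the Rab7 exchange factor, of -2.01 ± 0.16. Dennd4a, an exchange factor for Rab10, read -1.80, -3.55, -1.96 and -3.59, a 3.44-fold range with replicates 1 and 3 above 2 and 4. Rin1, Rab3ip, Dennd1a and Trappc2 were not well above background on any of the 4. GTPase-activating genes, which switch Rab proteins off, were detected for 17 of 20. Among them Evi5 (2.23-fold) and Usp6nl (2.23-fold) had ranges above 2-fold, and Tbc1d8 and Sgsm1 were not well above background on any of the 4.

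Effectors of early and recycling endosomes were detected for 18 of 21 genes. Rabep1, which encodes the Rab5 effector rabaptin 5, read 0.06, -1.06, 0.11 and -1.19, and Acap2, an effector of Rab35, read -0.79, -2.03, -1.12 and -2.76. Both were higher on replicates 1 and 3. Hook1, Hook3, Ehbp1 and Ocrl also had ranges above 2-fold, from 2.05 for Ehbp1 to 2.92 for Hook1. In this list 6 of 18 genes had such a range under the scaling used, where 13.6% of all genes did. Rab11fip2, Rab11fip4 and Mical3 were not well above background on any of the 4. Pik3c3, the lipid kinase of early endosomes and phagosomes, had a level of -0.68 ± 0.15.

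Late and secretory effectors were detected for 19 of 29 genes. Rilp, the Rab7 effector that binds the dynein motor, had a level of -1.19 ± 0.16, Plekhm1, which links Rab7 to lysosomal tethering, of -0.52 ± 0.13, and Vps39, of the tethering complex, of -3.59 ± 0.24. Unc13d, a Rab27a effector of granule secretion, had a level of -2.26 ± 0.099. The Rab27 effectors Sytl1, Sytl3, Sytl4, Sytl5 and Myrip and the Rab3 effectors Rph3a and Rims1 were not well above background on any of the 4. Nor were Rilpl1 and Bicd1. Other effectors of the same GTPases were detected on all arrays, among them Mlph, a Rab27a effector, at -3.12 ± 0.21 and Rims2, a Rab3 effector, at -4.18 ± 0.46. Gcc2, a Golgi tether for Rab6 and Rab9 routes, read -3.22, -5.11, -3.25 and -5.00, a 3.71-fold range. In all, 12 of 86 cycle and effector genes (14.0%) had a range above 2-fold, near the 13.6% of all genes. Under the scaling used the lists differed, with 6 of 18 early and recycling effectors and 2 of 7 genes of GDP dissociation inhibition and prenylation. The others had 1 of 25 exchange factors, 2 of 17 GTPase-activating genes and 1 of 19 late and secretory effectors. Of the 12 genes, 11 were highest on replicates 1 and 3, where 80.2% of all genes with such a range were. Scaling on all non-control probes lowered replicates 1 and 3 against 2 and 4, which narrows the ranges of such genes. With it 18.5% of all genes had a range above 2-fold. The lists were not counted again under other scalings, so the difference between them may depend on the scaling.

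**Figure D4:**
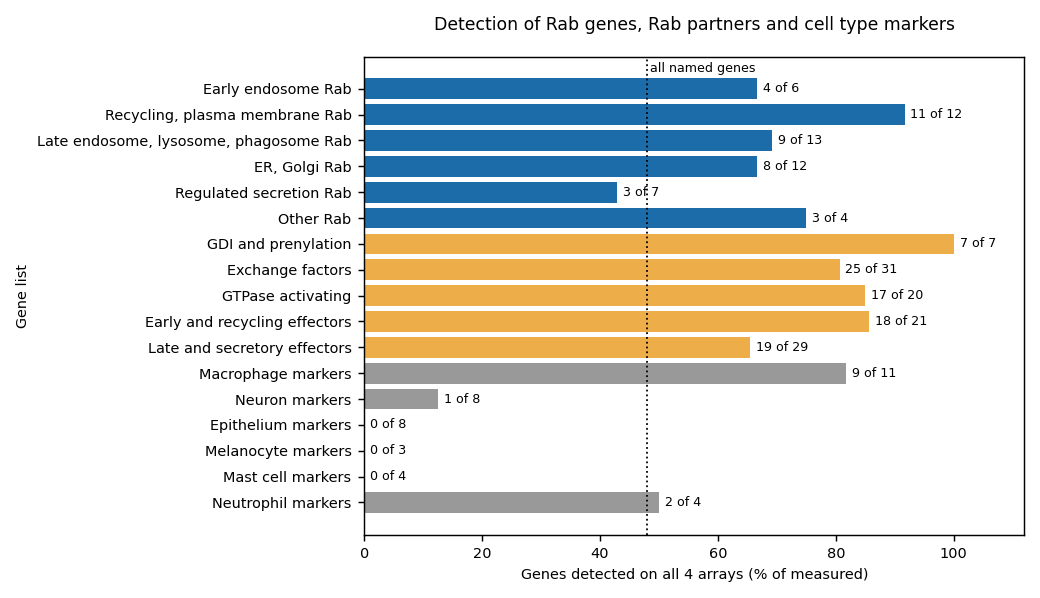
Share of measured genes detected on all 4 arrays (%), for Rab genes by role (blue), Rab regulators and effectors (yellow) and cell type markers (grey); the dotted line is the 47.9% of all named genes. Numbers beside the bars are genes detected of genes measured, from 0 of 8 epithelium markers to 7 of 7 genes of GDP dissociation inhibition and prenylation.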

How the data were processed

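RNA from 4 exposed NR8383 cultures, labelled with Cy3, was read on 1-colour Agilent arrays. Per the submitters' processing notes, the tool was Agilent Feature Extraction 11.0.1.1. The deposited intensity of a spot had its background and spatial trend removed by the authors, per the file headers, and arrays were not yet normalized to each other. Control spots and outlier-flagged spots were left out, no spot was saturated, and log2 values of a probe's spots were averaged. Each array was scaled by the 75th percentile of log2 intensity over probes detected on all arrays (34.2% of 45598). A repeated probe counted as detected where a share above 0.5 of its spots did. Accessions were matched without version to the RefSeq table of GRCr8 (21109 probes with 1 symbol). The build of the arrays differs (rn4), so coordinates are those of the promoter table only. A gene took the level of its brightest probe.

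With 1 group no test between groups was made. Members, roles and lists were chosen with earlier results of these data known. Values on every array are given for a list of endocytic and phagosomal members, members with a range above 2-fold or detected on some arrays only, and the 3 most even; other values were chosen after they were seen. The values of 1 listed gene are not reported here. Python 3.11.15, pandas 2.3.3, R 4.3.3 and limma 3.58.1 were used, and the scripts were tested on simulated data. Alternatives were other detection rules, 2 scalings (the 75th percentile of all non-control probes and the median of detected probes) and quantile normalization (together the 3 other scalings), normexp (offset 50) on median spot and background intensity, the mean over probes, flagged spots kept, and leaving out each replicate.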

Additional observations from a re-analysis of the deposited data

Results flagged for a closer look

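Of the 42 Rab genes detected on at least 1 array, 2 had 1 array that stood apart from the other 3 by Dixon's criterion. Both were counted as detected through that array alone, and their other 3 readings were at background, so the gap is a description and not a test. Rab19 was highest on replicate 1, at a level of -5.30, while its other arrays lay at -7.86 to -7.67. Of the 24 spots around it, 1 was at least 4-fold above its median on the other arrays there. Rab39a was highest on replicate 4, at -4.51, while its other arrays lay at -8.45 to -8.12, and 0 of the 24 spots around it were raised there. The rule counted signals below 50 as 50, so a dim spot could rise 4-fold without passing it. By this rule neither the Rab19 spot on replicate 1 nor the Rab39a spot on replicate 4 was itself raised. The counts of spots around them are thus a description, and a local artefact was not tested. Each gene had 1 probe printed as 1 spot, so neither reading could be checked within its array.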

How the results depend on the processing

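The number of Rab genes detected on all arrays was 38 under every alternative run on it other than detection by a positive and significant signal, which gave 41. Under that rule the members detected on no array were 6 in place of 12, and 95 cycle and effector genes were detected on all arrays in place of 86. Leaving out each replicate gave 3 to 5 members with a range above 2-fold, with Rab9a and Rab18 lost without replicate 1, Rab10 without replicate 2 and Rab18 without replicate 4. With a positive and significant signal it was 5 again, but Rab10 and Rab18 left and Rab3d and Rab5a came in, and normexp lost Rab10. Other settings gave 4 to 6, and which members passed depended on the scaling. Rab10 and Rab18 dropped out and Rab3d came in with the array median, Rab10, Rab18 and Rab21 dropped out and Rab25 and Rab3d came in with all non-control probes, and Rab10 dropped out and Rab25 and Rab3d came in with quantile normalization. Relative to the scaling used, scaling on all non-control probes lowered replicates 1 and 3 by 0.17 and 0.20 and raised replicates 2 and 4 by 0.19 and 0.18 on the log2 scale, and the array median moved them the same way by 0.10 to 0.11. Differences between arrays smaller than this, such as those of Rab31 and Rab29, depend on it: the SD of Rab31 was 0.19 with all non-control probes and that of Rab29 0.19. The median SD of the members ran from 0.215 to 0.308 over all alternatives, and that of all genes from 0.209 to 0.353. Of the 26 members covered by the rule for values on every array, the SD moved by over 1.5 times for 17 with all non-control probes, 13 with the median and 13 with quantile normalization. Members near background are limited by signal, not by the number of arrays alone. No paired analysis was possible because there was 1 group.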
